A study of Mus musculus with 12 samples.

Results

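A set of 7 genes that ties mouse cumulus cells to the oocyte was followed in RNA from cumulus cells: Slc38a3, Amh, Celf4, Npr2, Impdh1, Impdh2 and Kitl. They were chosen by name, as genes known to depend on the oocyte or to take part in meiotic arrest, and are 7 of the 13318 genes that carried a value in at least 1 of the 6 RNA libraries. There were 3 libraries from cells given FSH, a gonadotropin, together with FBS, fetal bovine serum, for 18 hours (the treated libraries), and 3 from cells labelled untreated. All were cumulus cells of Kunming mice, which the labels also call granulosa cells of antral follicles, and how long the untreated cells were cultured is not stated. FSH and FBS were given together, so their effects, and that of time in culture, cannot be told apart. The design text of the series describes both complexes that kept the oocyte and complexes from which it was taken out, and no label says which of these a group came from, so the presence of the oocyte cannot be told apart from the treatment either.

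The oocyte and its cumulus cells exchange signals in both directions. The oocyte secretes GDF9, BMP15 and FGF family factors, which in mice maintain the expression of a set of cumulus genes that includes Slc38a3, Amh and Npr2. In return, C-type natriuretic peptide acts on the receptor NPR2 in cumulus cells to make cyclic GMP, which passes through gap junctions into the oocyte and keeps it in meiotic arrest. IMPDH enzymes supply the guanine nucleotides from which cyclic GMP is made, and KIT ligand, the product of Kitl, acts on the KIT receptor of the oocyte and supports its growth.

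Levels are given as FPKM, the authors' fragment count scaled for transcript length and library size, which allows genes of different length to be compared. First-exon FPKM and last-exon FPKM were each summed per gene, and the higher sum is the level given. A gene that a deposited table did not hold is called not listed, which is not the same as 0: Tpi1, a glycolytic gene, was listed in untreated library 2 alone, at 143.5 FPKM. Libraries 1 and 2 of a group were far closer to each other than to library 3, with 2.82% of genes (FSH and FBS) and 4.54% (untreated) differing more than 2-fold between them, against 15.9% to 22.9% for the other pairs. They were therefore averaged and counted as 1 sample, so means and tests have n = 2 per group. Nothing in the labels says that libraries came from separate cultures, so the p-values cover no more than the variation among these samples, and that may be technical. The depth is unknown, because the files hold no counts. Library 3 listed the fewest genes of each group, 10475 with FSH and FBS and 10786 untreated. The other libraries listed 11365 to 11552 genes. The FPKM of all genes summed to 273357 to 390966 in FSH and FBS libraries, library 3 having the highest sum, and to 264904 to 268058 in untreated libraries.

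Of 11 granulosa and cumulus markers 10 were listed in at least 1 library, summing to 484.2 to 655.8 FPKM in treated libraries and to 545.5 to 657.6 in untreated libraries; Foxl2 was not listed in any library. Single markers differed in direction beneath these sums. Inha, the highest, was at 276.1 to 282.1 FPKM in treated libraries and 349.7 to 502.5 FPKM in untreated libraries. Amhr2, Fshr and Wt1 were also lower in every treated library, whereas Nr5a2 and Fst were higher in every one. Oocyte markers were not evenly spread. Their 21 genes summed to 2.53, 3.12 and 16.8 FPKM in treated libraries 1, 2 and 3, and to 18.7, 21.9 and 25.6 FPKM in the untreated libraries. Only 2 of these markers, Gdf9 and Kit, were listed in FSH and FBS libraries 1 and 2, against 7 in library 3 and 10 to 12 in the untreated ones. Kit made up most of the sum in treated libraries 1 and 2, at 2.27 and 2.97 FPKM, and was at 0.600 to 1.72 FPKM in untreated libraries. Gdf9 was at 0.260 and 0.157 FPKM in treated libraries 1 and 2. In treated library 3 it was at 8.77 FPKM, above its 4.16 to 6.06 FPKM in untreated libraries. Zp1, Zp2, Bmp15, Fgf8 and 4 more of them were not listed in any library. The 4 mural granulosa or luteal markers summed to 171.1 to 246.0 FPKM in treated libraries and to 41.0 to 63.4 FPKM in untreated libraries. That sum was mostly Cyp11a1, at 162.1 to 232.6 FPKM in treated libraries and 34.8 to 58.7 FPKM in untreated libraries; Nppc, on the same list, was higher in untreated libraries, and Lhcgr was at 0.617 FPKM or less wherever it was listed. The 5 theca and stroma markers summed to 14.3 to 17.5 FPKM in treated libraries and to 61.3 to 75.1 FPKM in untreated libraries. Most of this was a single gene, Acta2, at 13.6 to 17.5 FPKM in treated libraries and 58.3 to 67.7 FPKM in untreated libraries. Dcn was listed in untreated libraries only, at 2.99 to 7.86 FPKM. Col1a1 and Cyp17a1 were at 0.679 FPKM or less wherever they were listed, and Pdgfra was not listed in any library. The 8 leukocyte markers summed to 2.96 to 7.19 FPKM in treated libraries and to 8.97 to 12.6 FPKM in untreated libraries. The 6 endothelial markers summed to 2.58 to 3.37 FPKM in treated libraries and to 0.438 FPKM or less in untreated libraries. The 5 erythroid markers summed to 1.92 FPKM or less in each library. Whether RNA of these other cells has a part in the differences between libraries was not tested, and in bulk samples fewer cells of a type and less RNA per cell cannot be told apart.

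Every library listed 5 of the 7 genes, each averaging 1 FPKM or more, and these were tested: Amh, Impdh1, Impdh2, Npr2 and Slc38a3. Kitl and Celf4 were not tested, since some libraries did not list them. In the limma fit over all 9022 genes tested, 0 of the 5 passed an adjusted p of 0.05 as higher after FSH and FBS, and 0 as lower. The fit called 1.68% of all genes higher and 0.687% lower. The unadjusted limma p was 0.012 for Amh and 0.0099 for Impdh1, with adjusted p of 0.16 and 0.15. How many of all genes had an unadjusted p as low was not counted. The FSH and FBS libraries lay entirely above the untreated libraries for Amh, Npr2, Impdh1 and Impdh2, which was also so for 29.4% of all genes tested. None of the 5 lay entirely below, as 9.54% of all genes did. The median log2 fold change over the genes tested was 0.24, above 0. Amh and Impdh1 passed as higher, and 0 of the 5 as lower, when the replicate number was added as a block, a fit that called 11.5% of all genes higher and 4.51% lower. The same was so when the 6 libraries were taken as separate replicates, with 10.8% called higher and 3.88% lower. With both changes Npr2 also passed as higher (limma adjusted p = 0.043) and Slc38a3 as lower (limma adjusted p = 0.042), in a fit that called 16.8% of all genes higher and 6.47% lower.

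**Figure D1:**
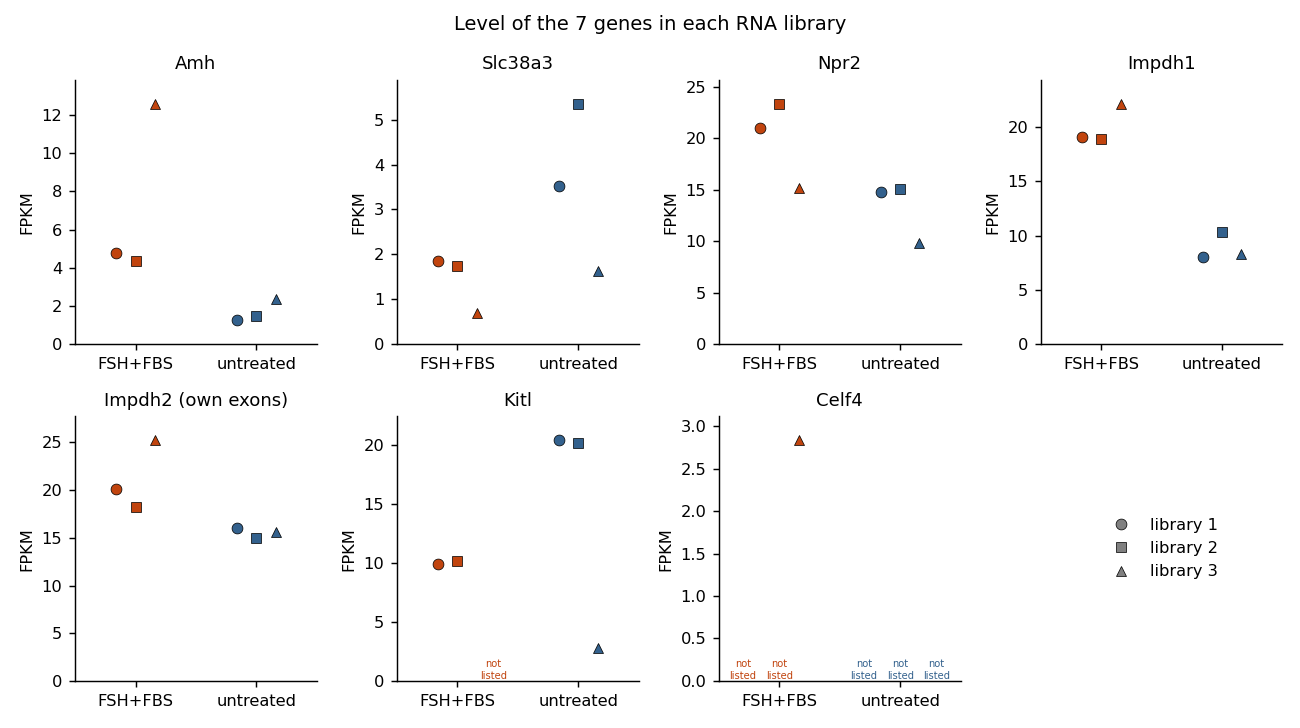
Level of each gene in each library as FPKM (vertical axes, linear, from 0), FSH and FBS libraries left and untreated libraries right; circles, squares and triangles are libraries 1, 2 and 3, and each point is 1 library. Amh, Npr2, Impdh1 and the own exons of Impdh2 have all 3 FSH and FBS points above the untreated points, Slc38a3 overlaps, and Kitl and Celf4 have libraries in which they were not listed.

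Amh, which encodes anti-Müllerian hormone, a TGF-beta family factor that granulosa and cumulus cells secrete, showed the largest difference of the tested genes. The files place it on chromosome 10 from 80805248 to 80807648 on the plus strand, in a build not given in the sources used here. It was at 4.78, 4.37 and 12.6 FPKM in treated libraries 1, 2 and 3, and at 1.28, 1.49 and 2.38 FPKM in the untreated libraries. All treated libraries were above all untreated ones, and library 3 was the highest of its group on both sides. The means were 8.58 ± 5.67 FPKM with FSH and FBS and 1.88 ± 0.703 FPKM in untreated cells (SD, n = 2 each). On the log2(FPKM + 1) scale, which understates the change of low genes, the fold change was 1.62 (SE 0.50, 95% CI 0.47 to 2.76). It did not pass in limma over all genes (adjusted p = 0.16), and did with the replicate number as a block (limma adjusted p = 0.0023). Without FSH and FBS library 3 the log2 fold change was 0.97, against 1.62 with it. First-exon and last-exon sums of Amh were equal in every library, as 1 first exon and 1 last exon were listed.

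Of 15 genes listed as AMH receptors, their SMADs and regulators of Amh, 12 were tested. Of these, 0 passed as higher and 1 as lower, where 1.68% and 0.687% of all genes did. Their median log2 fold change was -0.14 against 0.24 for all genes. The 1 that fell was Wt1, a transcription factor of granulosa cells, at 0.144 ± 0.195 FPKM with FSH and FBS and 6.13 ± 3.40 FPKM in untreated cells (SD, n = 2 each; limma adjusted p = 0.029). Its call did not hold with first-exon sums only, with unlisted genes as 0, or when scaled by median of ratios or to equal sums (adjusted p = 0.057 to 0.13). Amhr2, the type II receptor for AMH, named after its values were seen, was at 8.30, 11.3 and 11.9 FPKM in treated libraries and at 14.2, 15.7 and 23.0 FPKM in untreated libraries. That is the reverse order to Amh, with no overlap between the groups, and Amhr2 did not pass (limma adjusted p = 0.38). Bmpr1b, a type I receptor that also serves BMP15, was at 15.0 ± 9.12 FPKM with FSH and FBS and at 29.1 ± 8.96 FPKM in untreated cells (SD, n = 2 each; limma adjusted p = 0.35). Nr5a2, a nuclear receptor of granulosa cells, had a log2 fold change of 1.11 (limma adjusted p = 0.18), but 0.13 with first-exon sums only. For Bmpr1b the log2 fold change was -0.39 without FSH and FBS library 3 and -2.30 with first-exon sums only. With the replicate block, Bmpr1b and Nr5a2 passed the threshold.

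Slc38a3 encodes SNAT3, a sodium-coupled transporter of glutamine, histidine and alanine, and alanine is an amino acid that oocytes take up poorly by themselves. It lies on chromosome 9 from 107650634 to 107667426 on the minus strand. Slc38a3 was at 1.86, 1.75 and 0.699 FPKM in treated libraries 1, 2 and 3, and at 3.53, 5.35 and 1.64 FPKM in untreated libraries 1, 2 and 3. The groups overlapped, since untreated library 3 was below FSH and FBS libraries 1 and 2; library 3 was the lowest of each group. The means were 1.25 ± 0.780 FPKM with FSH and FBS and 3.04 ± 1.98 FPKM in untreated cells (SD, n = 2 each), a log2 fold change of -0.80 (SE 0.48, 95% CI -1.91 to 0.32) that did not pass (limma adjusted p = 0.46). In FSH and FBS library 3 no first exon of Slc38a3 was listed, and the value there is that of the last exon. The value was -0.44 without FSH and FBS library 3 and -1.32 without untreated library 3. Slc38a3 was a low gene, with a mean above that of only 8.43% of the genes tested.

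Other transporters of the same family likewise had no called difference. Of 10 family members on the list 6 were tested and 0 passed in either direction, with a median log2 fold change of 0.40 against 0.24 for all genes. Slc38a2, which carries small neutral amino acids, was at 89.8, 87.7 and 71.8 FPKM in treated libraries and at 58.1, 62.3 and 31.7 FPKM in untreated libraries (limma adjusted p = 0.36). Slc38a10 was at 58.7 ± 15.0 FPKM with FSH and FBS and at 28.9 ± 3.10 FPKM in untreated cells (SD, n = 2 each; limma adjusted p = 0.24). Slc38a1 had a log2 fold change of 0.41 (limma adjusted p = 0.72), with 1.04 without FSH and FBS library 3 and 0.071 without untreated library 3. Leaving out untreated library 3 also took the log2 fold change of Slc38a2 to 0.40, against 0.85 with it.

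Celf4 encodes an RNA-binding protein that regulates splicing and mRNA stability. It was listed in 1 library of 6, FSH and FBS library 3, by a last exon on chromosome 18 from 25477632 to 25479711 at 2.83 FPKM, with an included cassette exon of 79 bases at the same value. No statement on a difference between groups can be made from 1 listed value. Of its family, Celf1, a broadly expressed member, was at 30.5, 32.8 and 23.7 FPKM in treated libraries and at 8.99, 27.4 and 18.7 FPKM in untreated libraries, with overlap (limma adjusted p = 0.48). The list of 8 CELF and MBNL genes had 3 tested, 0 passed, and a median log2 fold change of -0.38; the other 2 tested were Mbnl1 and Mbnl2, splicing regulators with log2 fold changes of -0.53 and -0.38. Without FSH and FBS library 3 these were 0.055 and -0.0070, and without untreated library 3 they were -0.85 and -0.75. The log2 fold change of Celf1, 0.55, was 0.26 without untreated library 1 and 1.02 without untreated library 2.

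Npr2 encodes the guanylyl cyclase receptor for C-type natriuretic peptide. It lies on chromosome 4 from 43631887 to 43651244 on the plus strand, and was at 21.0, 23.4 and 15.2 FPKM in treated libraries 1, 2 and 3 and at 14.8, 15.1 and 9.82 FPKM in untreated libraries 1, 2 and 3. The groups did not overlap but almost touched, FSH and FBS library 3 being only just above untreated library 2; library 3 was the lowest of each group. The means were 18.7 ± 4.95 FPKM with FSH and FBS and 12.4 ± 3.61 FPKM in untreated cells (SD, n = 2 each). The log2 fold change was 0.56 (SE 0.38, 95% CI -0.32 to 1.45; limma adjusted p = 0.52), which is 0.32 above the median of all genes. It was 0.28 when scaled to equal sums and also without untreated library 3.

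Among the transcript forms listed for Npr2, a short intron near its 3' end was retained less in every treated library. This intron of 70 bases, at 43650324 to 43650393 on chromosome 4, was retained in 8.08%, 6.16% and 1.21% of the FPKM of its forms in FSH and FBS libraries 1, 2 and 3, and in 24.7%, 43.9% and 36.1% in the untreated libraries. No untreated library came near the treated ones. A minor first exon of Npr2, at 43641255 to 43641633, was likewise lower in every treated library, but held 0.262% of first-exon FPKM or less in each library. The intron share was picked out of the events of the 7 genes after its values were seen, and no test was made of it. A mouse splice variant of NPR2 is known that lacks part of the kinase homology domain and does not respond to the ligand. The 1 cassette exon listed for Npr2 has 75 bases, at 43643335 to 43643409, and was included in 99.9% of FPKM in FSH and FBS library 1. In the other 5 libraries the skipped form was not listed. Of the first-exon FPKM of Npr2, 44.7% to 54.0% in FSH and FBS libraries and 36.7% to 64.3% in untreated libraries lay on the most upstream first exon, and the rest on first exons further downstream.

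Among the other natriuretic peptide and cyclic GMP genes, the ligand and a second receptor were ordered in opposite ways. Of the 21 genes on this list, 14 had a value in some library and 4 were tested, of which 0 passed in either direction; their median log2 fold change was 0.49 against 0.24 for all genes. Npr1, the receptor for the atrial and B-type peptides, was at 5.51, 6.74 and 9.11 FPKM in treated libraries and at 0.592, 0.306 and 1.98 FPKM in untreated libraries. Every treated library was above every untreated one, and the log2 fold change of 2.03 (SE 0.46) did not pass (limma adjusted p = 0.070). Npr1 did pass with the replicate block and with last-exon sums only. Without FSH and FBS library 3, which leaves 1 treated sample, its log2 fold change was 1.78. Pde1a and Pde6d, a calcium-dependent phosphodiesterase and a phosphodiesterase-associated protein, had log2 fold changes of 0.68 and 0.31 (limma adjusted p = 0.57 and 0.70). The value of Pde1a was 1.48 without FSH and FBS library 3, and that of Pde6d was 0.47 without untreated library 3. Gucy1b1, a subunit of soluble guanylyl cyclase, was the fourth gene tested. It was at 1.63, 1.23 and 1.46 FPKM in treated libraries and at 3.62, 3.41 and 1.21 FPKM in untreated libraries, with overlap (log2 fold change -0.37, limma adjusted p = 0.73).

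The 10 other genes of this list with a value were not tested, since some library did not list them, and those described were picked after their values were seen. Nppc, the precursor of C-type natriuretic peptide, was at 0.982 and 0.504 FPKM in treated libraries 1 and 2, was not listed in library 3, and was at 3.68, 3.46 and 4.16 FPKM in untreated libraries. Prkg2, a cyclic GMP-dependent protein kinase, was at 4.66, 5.10 and 7.64 FPKM in treated libraries and was not listed in any untreated library. Gucy1a1, the partner subunit of Gucy1b1, was at 1.05 and 0.631 FPKM in treated libraries 1 and 2 and not listed in library 3, against 6.78, 7.49 and 2.95 FPKM in untreated libraries. Pde5a, which hydrolyses cyclic GMP, was at 2.17 and 1.96 FPKM in treated libraries 1 and 2 and not listed in library 3, against 6.74, 7.44 and 0.708 FPKM in untreated libraries; untreated library 3 was below both listed treated values. Pde1b, a calcium-dependent phosphodiesterase, was at 0.446 and 1.31 FPKM in treated libraries 1 and 2 and not listed in library 3, against 3.51, 3.48 and 4.05 FPKM in untreated libraries. Nppb, Npr3, Gucy1a2, Pde9a and Pde10a were at 1.10 FPKM or less wherever they were listed.

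**Figure D2:**
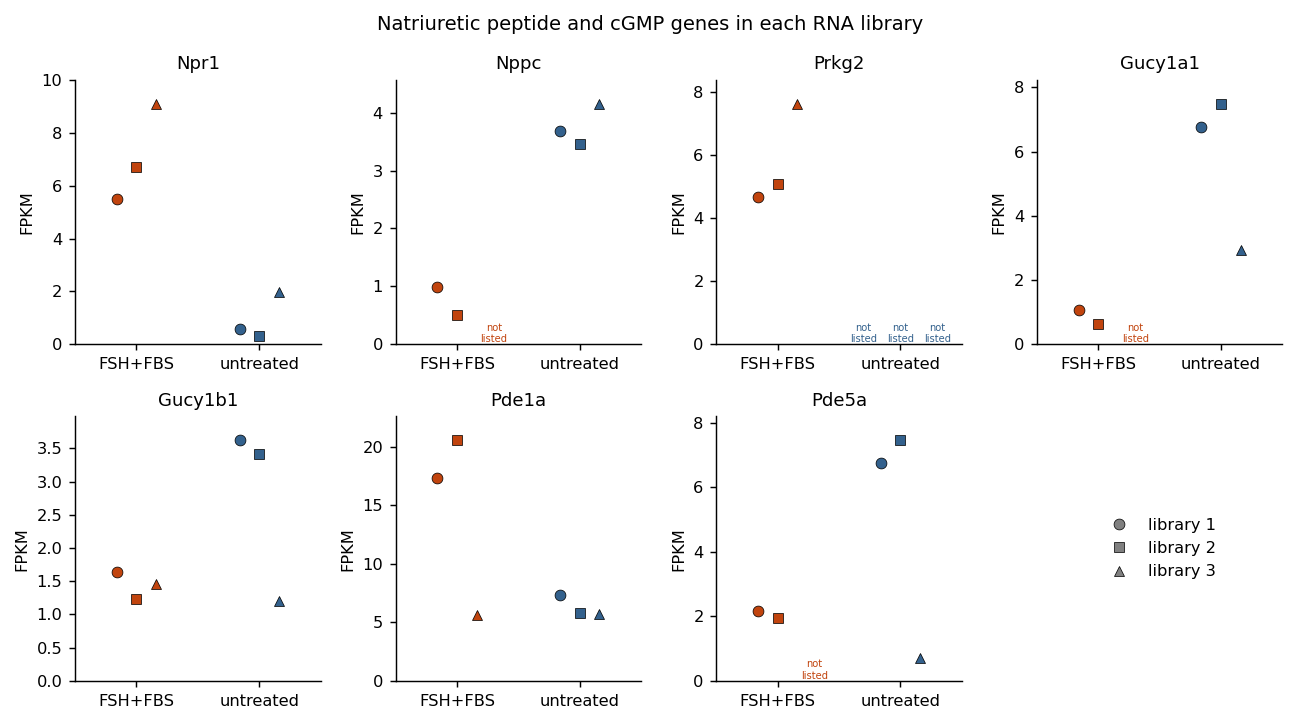
Level of 7 natriuretic peptide and cyclic GMP genes in each library as FPKM (vertical axes, linear, from 0), FSH and FBS libraries left and untreated libraries right; each point is 1 library and circles, squares and triangles are libraries 1, 2 and 3. Npr1 and Prkg2 have their higher points on the left, and Nppc and Gucy1a1 on the right, where Nppc lies between 3.46 and 4.16 FPKM.

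Impdh1 encodes 1 of the 2 IMP dehydrogenases, which catalyse the rate-limiting step of guanine nucleotide synthesis. Its listed first and last exons lie on chromosome 6 between 29206306 and 29216331 on the minus strand. Impdh1 was at 19.1, 18.9 and 22.1 FPKM in treated libraries 1, 2 and 3 and at 7.98, 10.3 and 8.28 FPKM in untreated libraries. The groups were well apart, and every treated library was above every untreated one. These are first-exon sums, since the last exons listed under Impdh1 held 0.345 FPKM or less in each library. The means were 20.6 ± 2.23 FPKM with FSH and FBS and 8.71 ± 0.605 FPKM in untreated cells (SD, n = 2 each), a log2 fold change of 1.15 (SE 0.34, 95% CI 0.36 to 1.94). It did not pass (limma adjusted p = 0.15), and did with the replicate number as a block (limma adjusted p = 0.014). Leaving out any 1 library kept the log2 fold change between 1.04 and 1.24. Without library 1 or 2 of a group, however, the other still stood for the same sample. The log2 fold change was 0.89 when scaled by median of ratios, 0.86 at equal sums and 0.87 with quantile normalization.

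The first exon that Impdh1 used differed between libraries. Its upstream first exon, at 29216072 to 29216331, held 93.4% and 97.5% of first-exon FPKM in treated libraries 1 and 2 but 26.1% in library 3, against 30.1%, 35.9% and 44.2% in untreated libraries. FSH and FBS library 3 was below all untreated libraries, so the groups overlapped. Nearly all the rest lay on a downstream first exon at 29212069 to 29212249, with 5.85%, 1.98% and 73.7% in the treated libraries and 68.6%, 63.3% and 54.5% in the untreated ones. In transcripts from the upstream start, the next exon has a form of 102 bases and one of 99. The longer form held 64.4%, 64.4% and 56.6% of the FPKM of both in FSH and FBS libraries and 24.2%, 49.8% and 25.8% in untreated libraries, without overlap. A cassette exon of 17 bases, at 29201888 to 29201904, was included in 0%, 4.61% and 0% in FSH and FBS libraries and in 12.5%, 4.70% and 9.06% in untreated libraries, a form that was not listed counting as 0. These shares were chosen after their values were seen and are given without a test.

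Because the starts trade places between libraries, the 250 bases before each RefSeq start of Impdh1 (GRCm38.p6, minus strand, 5' to 3') are shown. Capitals mark the core of a GC box, GGGCGG, read on either strand.
Impdh1 upstream start, chr6:29216365-29216614: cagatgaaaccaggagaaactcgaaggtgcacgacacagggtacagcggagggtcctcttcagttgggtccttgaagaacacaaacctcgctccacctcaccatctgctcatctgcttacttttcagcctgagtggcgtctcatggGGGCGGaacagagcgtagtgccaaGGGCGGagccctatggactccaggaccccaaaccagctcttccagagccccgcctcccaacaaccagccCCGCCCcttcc
Impdh1 downstream start, chr6:29212298-29212547: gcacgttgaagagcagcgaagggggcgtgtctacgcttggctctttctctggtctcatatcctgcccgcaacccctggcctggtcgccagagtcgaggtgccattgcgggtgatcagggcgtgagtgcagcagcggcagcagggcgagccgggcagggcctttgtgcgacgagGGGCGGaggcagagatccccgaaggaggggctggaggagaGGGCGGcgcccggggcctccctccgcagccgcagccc
The window of the upstream start held 3 GC boxes and 59.2% G and C, and that of the downstream start 2 GC boxes and 69.6%. Neither window held the TATA box, searched as TATAAA, or the full cyclic AMP response element, searched as TGACGTCA, on either strand. Of 32851 RefSeq windows of the same length, 32.7% held the GC box, 12.4% the TATA box and 1.55% the response element. The searched letters do not overlap each other. A match is a description of these letters and not of a factor's binding.

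Impdh2 encodes the second IMP dehydrogenase, and its rows also held another gene. In 5 of the 6 libraries, rows from 108516806 onward on chromosome 9 carried the identifier of Impdh2, whereas untreated library 2 listed that stretch under Qrich1, its upstream neighbour, and started Impdh2 at 108560286. By all rows with its identifier Impdh2 was at 49.4, 49.6 and 48.9 FPKM in treated libraries and at 42.7, 15.0 and 31.4 FPKM in untreated libraries. First exons before 108560286 made up 29.2, 31.3 and 23.7 FPKM of these values in FSH and FBS libraries and 26.6, 0 and 15.8 in untreated libraries. Untreated library 2 was low on that measure, and its Qrich1 rows, with 25.2 FPKM of first exons, stood apart.

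By its own exons Impdh2 was at 20.1, 18.3 and 25.2 FPKM in treated libraries 1, 2 and 3 and at 16.1, 15.0 and 15.6 FPKM in untreated libraries. The groups did not overlap, and the untreated libraries were nearly level. The means were 22.2 ± 4.26 FPKM with FSH and FBS and 15.6 ± 0.0628 FPKM in untreated cells (SD, n = 2 each). The log2 fold change was 0.47 (SE 0.35, 95% CI -0.32 to 1.27; limma adjusted p = 0.54), against 0.69 by all rows with the identifier (limma adjusted p = 0.35). The last exon alone, at 16.7, 16.2 and 24.6 FPKM in treated libraries and 12.7, 13.3 and 13.0 FPKM in untreated libraries, had the same order of groups.

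**Figure D3:**
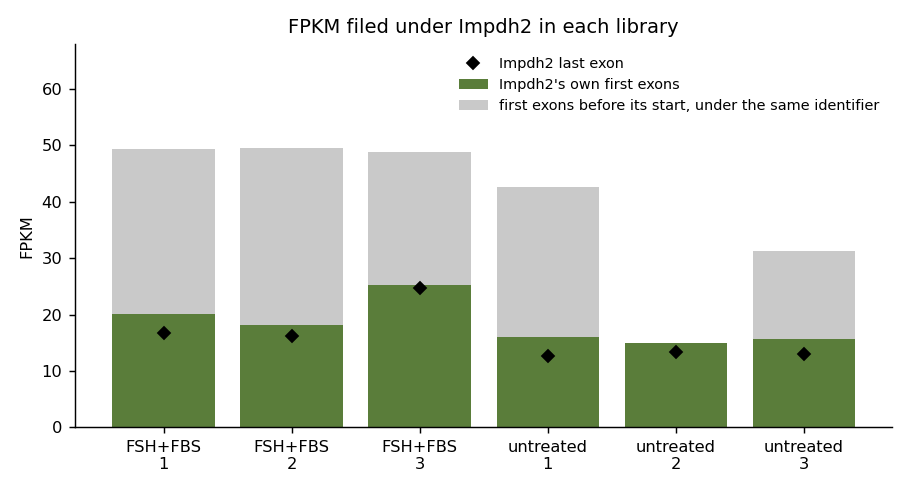
FPKM filed under Impdh2 in each library (vertical axis, linear, from 0), FSH and FBS libraries left and untreated libraries right. Green is the sum of first exons within Impdh2, grey the sum of first exons before its start, and diamonds the last exon; the grey part is 0 in untreated library 2 and 15.8 to 31.3 FPKM elsewhere.

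The rest of purine and guanine nucleotide synthesis included none that passed. Of 19 genes 15 were tested, 0 passed in either direction, and the median log2 fold change was 0.37 against 0.24 for all genes. Gart, which carries several steps of purine synthesis, was at 24.8, 24.3 and 25.5 FPKM in treated libraries and at 16.1, 14.8 and 15.5 FPKM in untreated libraries (log2 fold change 0.66, limma adjusted p = 0.37). Gmpr, GMP reductase, which runs the pathway back from GMP to IMP, was at 1.75, 1.94 and 3.32 FPKM in treated libraries and at 4.13, 4.23 and 5.12 FPKM in untreated libraries. It was the gene of this list with the most negative log2 fold change, -0.68, and did not pass (limma adjusted p = 0.44). Adssl1, an adenylosuccinate synthase, was at 2.06 ± 0.211 FPKM with FSH and FBS and at 0.905 ± 0.0213 FPKM in untreated cells, without overlap (SD, n = 2 each; log2 fold change 0.68, limma adjusted p = 0.40). Xdh, xanthine dehydrogenase, was not tested. It was at 2.39, 1.38 and 2.14 FPKM in treated libraries and at 0.438 and 0.456 FPKM in untreated libraries 1 and 2, and was not listed in untreated library 3; it is named after its values were seen. Gmps, GMP synthetase, which acts just after IMP dehydrogenase and is named after its values were seen, had a log2 fold change of 0.28 (limma adjusted p = 0.74).

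Kitl lies on chromosome 10 from 100015630 to 100100413 on the plus strand. It was at 9.90 and 10.2 FPKM in treated libraries 1 and 2 and without a value in library 3, against 20.4, 20.1 and 2.75 FPKM in untreated libraries 1, 2 and 3. Untreated library 3 was below both listed treated libraries, so the groups overlapped, and library 3 was low or not listed on both sides. In FSH and FBS library 3 only the included form of 1 cassette exon was listed, at 0.929 FPKM. With values that were not listed set to 0, the log2 fold change was -1.43 (SE 1.24, limma adjusted p = 0.62).

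Kitl is known for a long form, which includes an exon with a cleavage site and is shed as a soluble ligand, and a short form, which skips it and stays on the cell membrane. The cassette exon listed for Kitl, at 100080857 to 100080940, has 84 bases, the length of that exon. It was included in 99.0% and 98.7% of the FPKM of both forms in FSH and FBS libraries 1 and 2, and in 82.8% and 72.0% in untreated libraries 1 and 2. The skipped form was at 0.0898 and 0.114 FPKM in treated libraries 1 and 2, against 3.39 and 5.44 FPKM in untreated libraries 1 and 2. FSH and FBS library 3 listed the included form alone, and untreated library 3 listed neither. Since libraries 1 and 2 count as 1 sample, the share rests on 1 untreated sample and has no replicate check there.

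**Figure D4:**
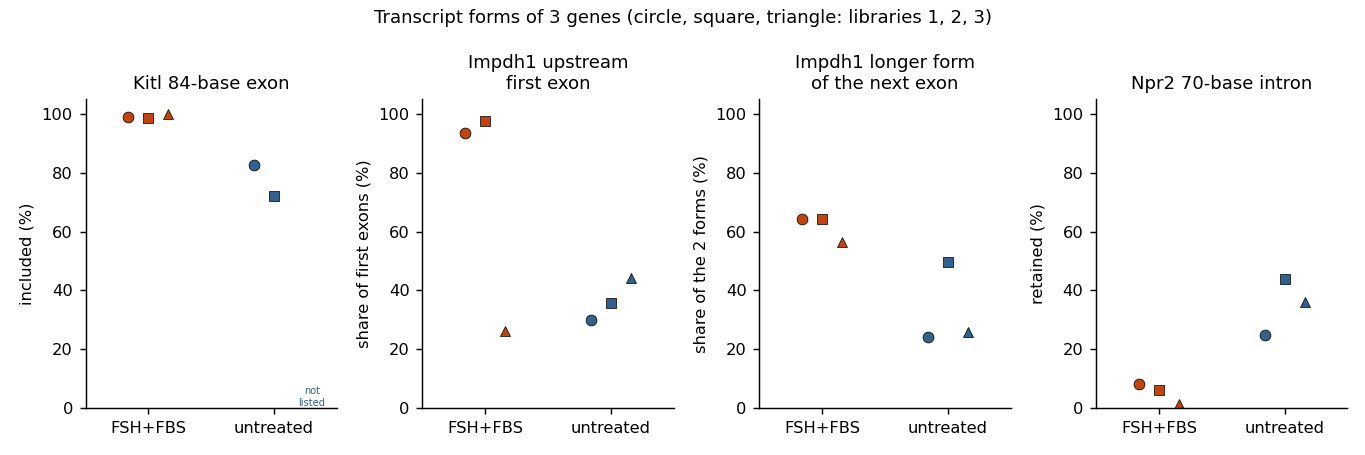
Share of a transcript form in each library as a percentage of the FPKM of its forms (vertical axes, from 0), FSH and FBS libraries left and untreated libraries right; each point is 1 library. From left to right are the included 84-base exon of Kitl, the upstream first exon of Impdh1, the longer form of the exon after it, and the retained 70-base intron of Npr2; the untreated points of Kitl are at 82.8% and 72.0%, and for the Impdh1 first exon the triangle of FSH and FBS library 3, at 26.1%, is below all untreated points.

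Kit, the receptor for KIT ligand, is named after its values were seen. It was at 2.27 and 2.97 FPKM in treated libraries 1 and 2, was not listed in library 3, and was at 1.17, 1.72 and 0.600 FPKM in untreated libraries. Of 9 genes listed as partners of KIT ligand, 5 were tested and 0 passed in either direction, with a median log2 fold change of 0.82. Adam9, a membrane protease, was at 18.3 ± 6.82 FPKM with FSH and FBS and at 8.41 ± 3.20 FPKM in untreated cells (SD, n = 2 each; limma adjusted p = 0.28), and passed with the replicate block. Its log2 fold change was 1.03, and 0.68 without untreated library 3. Grb2 and Sos1, which link receptor kinases to RAS, had log2 fold changes of 0.82 and 0.41 (limma adjusted p = 0.31 and 0.62). With first-exon sums only the value of Grb2 was 2.03, and Sos1 was not among the genes tested in that fit.

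The receptors through which oocyte factors act included none that passed. Of 13 receptor and SMAD genes 9 were tested, with a median log2 fold change of -0.12. Bmpr2, the type II receptor for GDF9 and BMP15, was at 17.2, 17.6 and 3.65 FPKM in treated libraries and at 56.0, 48.8 and 27.1 FPKM in untreated libraries. The groups did not overlap, library 3 was the lowest of each, and the log2 fold change of -2.07 did not pass (limma adjusted p = 0.17); it was -1.08 without FSH and FBS library 3. Smad6, an inhibitory SMAD, was at 6.50 ± 0.874 FPKM with FSH and FBS and at 20.1 ± 6.49 FPKM in untreated cells (SD, n = 2 each; limma adjusted p = 0.10), and Fgfr1, an FGF receptor, at 13.7 ± 3.62 FPKM with FSH and FBS and at 3.30 ± 0.484 FPKM in untreated cells (SD, n = 2 each; limma adjusted p = 0.058). Bmpr2, Smad6 and Fgfr1 all passed with the replicate block.

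Other genes that the oocyte is known to raise in mouse cumulus cells include enzymes of glycolysis and cholesterol synthesis. Of 18 such genes 15 were tested, 3 passed as higher and 0 as lower, where 1.68% and 0.687% of all genes did. Their median log2 fold change was 1.55 against 0.24 for all genes. The 3 were Msmo1, Cyp51 and Sqle, all of sterol synthesis, with log2 fold changes of 2.74, 1.86 and 1.87 (limma adjusted p = 0.010, 0.031 and 0.031). Cyp51 and Sqle did not pass without untreated library 3, with first-exon sums only, or under any of 3 rescalings (adjusted p = 0.067 to 0.18), while Msmo1 passed under every alternative run. Of 7 genes known to be held down by the oocyte, 5 were tested, 1 passed as higher and 1 as lower. Cyp11a1, the side-chain cleavage enzyme of steroid synthesis, had a log2 fold change of 2.01 (limma adjusted p = 0.046), a call that 10 of the alternatives ended, among them leaving out FSH and FBS library 1 or any of the untreated libraries. Cd24a, a surface glycoprotein, was at 22.1, 23.6 and 13.2 FPKM in treated libraries and at 128.8, 123.7 and 83.0 FPKM in untreated libraries (log2 fold change -2.49, limma adjusted p = 0.024), and did not pass with first-exon sums only (adjusted p = 0.069). Ccnd2, a D-type cyclin, had a log2 fold change of 1.70 (limma adjusted p = 0.065) and passed with the replicate block.

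**Figure D5:**
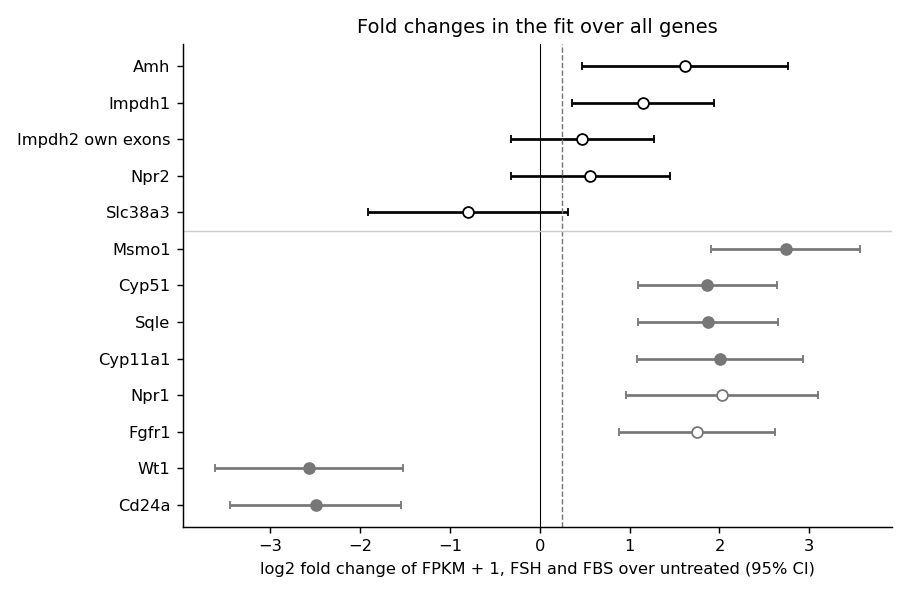
Log2 fold change of FPKM + 1, FSH and FBS over untreated (horizontal axis), with 95% confidence intervals from the limma fit over all genes with n = 2 per group; black is the 5 tested genes and grey 8 genes of the lists. Filled points passed an adjusted p of 0.05 and open points did not, and the dashed line is the median of all genes at 0.24; the 5 black points, from Amh at 1.62 to Slc38a3 at -0.80, are all open.

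Gap junctions carry cyclic GMP from cumulus cells to the oocyte. Of 5 genes on the gap junction list 3 were tested, 0 passed in either direction, and the median log2 fold change was -1.17 against 0.24 for all genes. Gja4 and Gja5, also connexin genes, were not listed in any library, so the values below do not cover them. Gja1, connexin 43, was at 446.5, 447.7 and 240.4 FPKM in treated libraries and at 968.2, 994.7 and 709.0 FPKM in untreated libraries. The groups did not overlap, and it did not pass (log2 fold change -1.34, limma adjusted p = 0.27). Gjc1, connexin 45, had a log2 fold change of -1.17 (limma adjusted p = 0.33), or -0.49 without FSH and FBS library 3, and Tjp1, a scaffold of junctions, one of 0.08 (limma adjusted p = 0.95) whose direction turned under each of the 3 rescalings and without untreated library 3. With the replicate block Gjc1 passed as lower.

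The order of levels was not the same in both groups. By group means in FSH and FBS libraries the 5 genes listed everywhere ran from Impdh2 by its own exons at 22.2, Impdh1 at 20.6 and Npr2 at 18.7 to Amh at 8.58 and Slc38a3 at 1.25 FPKM. In untreated libraries they ran from Impdh2 by its own exons at 15.6, Npr2 at 12.4, Kitl at 11.5 and Impdh1 at 8.71 to Slc38a3 at 3.04 and Amh at 1.88 FPKM. Kitl was the highest of all in untreated libraries 1 and 2 but not in library 3, and in treated libraries 1 and 2 it lay between Npr2 and Amh. Over all libraries Npr2 and Impdh1 stood above 65.1% and 60.4% of the genes tested, and Amh above 20.2%. In treated libraries the ranges of Impdh2 by its own exons, Impdh1 and Npr2 overlapped, and those of Amh and Slc38a3 did not. In untreated libraries the ranges of Impdh2 by its own exons and Npr2 overlapped, as did those of Npr2 and Impdh1, and those of Slc38a3 and Amh. The genes most like each one were those with the smallest Euclidean distance between centred log2(FPKM + 1) values over the 6 libraries. For Amh these were Lamtor4 and Fam213b, at distances of 0.221 and 0.301 against a median of 2.12 over all genes. For Npr2 they were Rnf13 and Yme1l1 (0.0945 and 0.106, median 1.12), for Impdh1 Kif21a and Ifrd2 (0.177 and 0.186, median 1.39), and for Slc38a3 Boc and Camk2d (0.226 and 0.280, median 1.79). For Impdh2 by its own exons they were Vdac2 and Mkks (0.0328 and 0.105, median 0.984), and by all rows with its identifier Asnsd1 and Pygo2 (0.271 and 0.332, median 1.59), which share its low value in untreated library 2, at 5.42 and 15.2 FPKM. These likenesses rest on 6 libraries of which 2 in each group count as 1 sample.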

How the data were processed

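RNA from 3 FSH and FBS and 3 untreated libraries was analysed; the small RNA samples are not analysed here. The submitters' processing notes name HISAT2 2.0.1 as a tool; the assembler, event caller, filters and genome build are not given in the sources used here. Deposited values are FPKM per transcript event (first, last and cassette exons, introns and others), per the file headers, and no event is listed at 0. Symbols came from a supplied table that matched 13281 of 13318 identifiers, and 99.0% of 12768 genes overlapped their RefSeq position.

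First-exon and last-exon FPKM were summed per gene on its main strand and the larger sum was taken. Libraries 1 and 2 of each group were averaged because they were close; with no counts, sampling noise could not be tested. Genes that all 6 libraries listed, averaging 1 FPKM or more, were tested two-sided with limma 3.58.1 (R 4.3.3) on log2(FPKM + 1) with a mean-variance trend; p-values were adjusted by Benjamini-Hochberg and called under 0.05. The script was tested on simulated data. Same-numbered libraries of the 2 groups deviated together (r = 0.32, 0.31 and 0.51 over 9022 genes for numbers 1, 2 and 3). The fit with the replicate number as a block is therefore given where it changes a call. Libraries 1 and 2 also correlated across numbers (r = 0.31 and 0.33). Deviations were taken from the group mean, so those of the closely alike libraries 1 and 2 both mirror library 3. Pairing of number 1 apart from number 2 is thus not shown.

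The genes and lists were chosen with earlier results of these data known. Named list genes were those called and the 3 of each list with the smallest adjusted p; the 2 genes most like each tested gene were also named. Alternatives covered scaling, pseudocount, filter, exon sums, values not listed, blocks and leaving out libraries. Separating Impdh2 from its neighbour was added after seeing the data. RefSeq windows before the start were matched by symbol, leaving out chromosome 18, where Celf4 lies. This gave windows for 4 of the 7 genes.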

Additional observations from a re-analysis of the deposited data

How the results depend on the processing

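With 2 samples per group and unknown depth, a gene that did not pass is not shown to be unchanged. Over all genes, 152 were called higher and 62 lower. These counts were 973 and 350 with 6 libraries as separate replicates, 1040 and 407 with the replicate block over the 4 samples, 1516 and 584 with the replicate block over the 6 libraries, 42 and 21 with first-exon sums only, 49 and 41 when scaled by median of ratios, and 59 higher when scaled to equal sums. Leaving out 1 library gave 60 to 272 higher and 41 to 112 lower: 272 and 112 without FSH and FBS library 3, and 60 and 41 without untreated library 3.

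Of the 7 genes 0 were called in the fit with n = 2. With 6 libraries as separate replicates 2 were higher, Amh and Impdh1 (adjusted p = 0.044 and 0.0099, with 10.8% of all genes called higher). The same 2 were higher with the replicate block over the 4 samples. With the replicate block over the 6 libraries 3 were higher, Npr2 added (adjusted p = 0.043, 16.8% of all genes called higher), and 1 was lower, Slc38a3 (adjusted p = 0.042, 6.47% called lower); both 6-library fits count libraries 1 and 2 as separate, so their p-values are too small if these are repeat measurements. Directions of the 5 tested genes held under all alternatives run, with log2 fold changes of 0.97 to 2.0 for Amh, 0.86 to 1.24 for Impdh1, 0.29 to 1.14 for Impdh2, 0.28 to 0.82 for Npr2 and -1.32 to -0.44 for Slc38a3. For Impdh2 these are values by all rows with its identifier, which also hold its neighbour Qrich1 in all libraries but untreated library 2. By that measure the value was 0.42 without untreated library 2 and 1.14 without untreated library 1. Its own exons were used in 1 alternative only, with a log2 fold change of 0.47, so its direction was not followed over the other alternatives. Direction turned for Pde6d (-0.0062 with quantile normalization), Mbnl1 (0.055 without FSH and FBS library 3, with -0.85 to 0.055 over the libraries left out) and Tjp1 (-0.17 by median of ratios, -0.19 at equal sums, -0.10 with quantile normalization and -0.074 without untreated library 3, with -0.074 to 0.58 over the libraries left out); none of these was called. The median over all genes was 0.0037 after median-of-ratios scaling, against 0.24 unscaled. The causes were not tested.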
